A study of Mus musculus with 19 samples.

Results

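The peroxisome proliferator-activated receptor genes Ppara, Ppard and Pparg, their partner gene Rxra and the fat-use genes Cpt1a, Pdk4, Angptl4, Cd36 and Lpl were followed across 19 hippocampus arrays from mice of 2 genotypes on 2 diets. The 9 genes were taken by symbol from the array annotation, each from the probe set that carries its symbol alone, and all 9 of the 19938 genes measured this way were found, with 1 probe set each. None of the 9 reached an adjusted p under 0.05 between genotypes or between diets in any of 7 comparisons by limma, in which 0% to 0.271% of all genes passed. Pparg, Cpt1a, Pdk4, Cd36 and Lpl spread widely between arrays of a group, while Ppard, Rxra and Angptl4 did not. Several of the 9 varied array by array with marker genes of other cell types.

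The PPARs are nuclear receptors that are switched on by fatty acids and their derivatives, and that bind DNA as pairs with a retinoid X receptor such as the product of Rxra. PPAR alpha is best known for driving fatty acid oxidation in liver, PPAR delta is the most widely expressed of the family in brain, and PPAR gamma is the master regulator of fat cells and is also present in microglia and other immune cells. Ibuprofen inhibits the cyclooxygenases, and in cell assays it can also bind PPARs, which makes these genes a readout of interest in animals fed the drug.

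Arrays came from hippocampus of mice 6 months old on the C57BL/6J strain background, in 4 groups. These were APP-PS1 mice on ibuprofen chow (n = 5), APP-PS1 mice on control chow (n = 5), wild-type mice on ibuprofen chow (n = 5) and wild-type mice on control chow (n = 4). The APP-PS1 genotype, labelled APPSwe-PS1deltaE9, carries mutant amyloid precursor protein and presenilin transgenes that the prion protein promoter drives in this line, and the wild-type animals were littermates. Ibuprofen was given in the food at 375 ppm between 3 and 6 months of age, and control animals ate the same chow without it. Sex, litter and array batch are not in the labels, and nothing in them says whether a sample is 1 animal, so p-values measure the spread between these samples.

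App, which the transgene adds to, lay between 13.55 and 13.64 in APP-PS1 arrays on ibuprofen chow and between 13.57 and 13.62 on control chow, against 13.16 to 13.40 and 13.16 to 13.22 in wild-type arrays on the same diets, so the genotype labels held for all 19 arrays. The 8 marker genes of hippocampal pyramidal and granule cells were all measured, and their mean stayed between 10.75 and 11.28. Values are log2 RMA summaries, and array medians ran from 8.06 to 8.14. The arrays correlated with each other at 0.970 to 0.997, and 3 of them stood apart with a median correlation under 0.99: wild-type replicates 1 and 5 on ibuprofen chow and APP-PS1 replicate 1 on control chow. In whole tissue, fewer cells of a type and less RNA per cell cannot be told apart. Levels of different probe sets are not comparable, so only values of the same gene are set against each other.

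The DNA element that PPAR and RXR bind together is a direct repeat of AGGTCA spaced by 1 base, AGGTCANAGGTCA, and 300-base promoter windows (250 bases before to 50 after an annotated start, RefSeq, build GRCm38.p6) were available for 7 of the 9 genes, in 10 windows. Both strands were searched for the repeat, allowing mismatches, and for the half-site AGGTCA, of which the repeat is made, so that the searches overlap. The best-matching windows belonged to Cd36 and to a second annotated start of Rxra, each with 10 of the 12 defined letters, a score that 3.86% of all 32851 windows reach. They are shown because they are the member windows closest to the element, with the matching stretch in capitals. The Cd36 window lies at chr5:17835847-17836146 on the minus strand, with the match at position -63 from the start, and the Rxra window at chr2:27709042-27709341 on the plus strand, with the match at position -75.
Cd36: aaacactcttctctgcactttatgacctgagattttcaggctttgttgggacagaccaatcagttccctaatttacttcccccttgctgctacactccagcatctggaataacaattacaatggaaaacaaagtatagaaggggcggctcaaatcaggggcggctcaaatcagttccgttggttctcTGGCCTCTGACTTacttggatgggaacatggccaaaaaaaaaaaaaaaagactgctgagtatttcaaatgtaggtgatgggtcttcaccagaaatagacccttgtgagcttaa
Rxra: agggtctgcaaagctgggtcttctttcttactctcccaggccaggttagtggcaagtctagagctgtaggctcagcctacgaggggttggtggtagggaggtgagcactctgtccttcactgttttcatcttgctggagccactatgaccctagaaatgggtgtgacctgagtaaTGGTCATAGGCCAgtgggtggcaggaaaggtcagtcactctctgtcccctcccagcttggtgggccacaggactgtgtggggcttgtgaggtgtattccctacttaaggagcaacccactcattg

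The Cd36 window held 1 half-site and the Rxra window 2, all outside the stretches in capitals, and 16.3% of all windows held at least 1. The Cpt1a window and some Pparg windows also held 1 each. The other windows, of Ppara, Ppard, Pparg, Rxra, Cpt1a and Pdk4, matched at 7 or 8 letters, and 79.8% of all windows reach 8. A match of this kind is a description of letters, and no binding was measured.

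Among the receptors, Ppara, the receptor of fasting and fat oxidation, had values of 7.86, 7.86, 7.77, 7.80 and 7.80 in APP-PS1 mice on ibuprofen chow, against 7.95, 7.77, 7.76, 7.97 and 7.76 in APP-PS1 mice on control chow. In wild-type mice it stood at 8.05, 7.74, 7.78, 7.77 and 8.34 on ibuprofen chow, against 7.85, 7.98, 7.82 and 7.82 on control chow. All groups overlapped, and the 2 wild-type ibuprofen arrays that stood apart were the highest of their group. The ibuprofen difference of Ppara was -0.03 ± 0.09 (limma SE) in APP-PS1 mice, adjusted p = 0.930, and 0.07 ± 0.10 (SE) in wild-type mice, adjusted p = 0.723.

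Ppard, the widely expressed receptor, was the steadiest receptor gene, with a within-group SD of 0.0889 that was larger than that of 18.8% of genes. It ran from 9.82 to 10.07 in APP-PS1 mice on ibuprofen chow and from 9.96 to 10.07 on control chow, and in wild-type mice from 9.86 to 10.10 on ibuprofen chow and from 9.85 to 10.13 on control chow. The widest gap between group means was 0.06. Its 7 differences lay between -0.06 and -0.01, and the 95% interval of the ibuprofen effect averaged over genotypes ran from -0.15 to 0.04.

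Pparg, the receptor of fat cells and macrophages, showed its widest contrast between diets in APP-PS1 mice, with 8.82, 8.71, 8.80, 8.91 and 8.95 on ibuprofen chow, against 8.76, 8.67, 8.59, 8.53 and 8.65 on control chow. The ibuprofen arrays were mostly the higher ones, but replicate 2 on ibuprofen chow lay below replicate 1 on control chow, so the groups overlapped. The difference was 0.20 ± 0.11 (SE), a fold of 1.15, with adjusted p = 0.716. In wild-type mice the values were 8.90, 8.64, 8.52, 8.57 and 9.05 on ibuprofen chow, against 8.72, 8.50, 9.19 and 8.57 on control chow. There the groups overlapped throughout, wild-type control chow replicate 3 was the highest array of all, and the difference was -0.01 ± 0.12 (SE), adjusted p = 0.965. The genotype by diet interaction for Pparg was 0.21 ± 0.16 (SE), adjusted p = 0.430.

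Rxra, which encodes 1 of the retinoid X receptors that PPARs pair with to bind DNA, was the only receptor gene with an unadjusted p under 0.05. On ibuprofen chow it stood at 9.31, 9.58, 9.33, 9.26 and 9.29 in APP-PS1 mice, against 9.50, 9.36, 9.47, 9.49 and 9.70 in wild-type mice. On control chow it stood at 9.45, 9.35, 9.32, 9.33 and 9.43 in APP-PS1 mice, against 9.40, 9.48, 9.53 and 9.40 in wild-type mice. On ibuprofen chow every wild-type array exceeded 4 of the 5 APP-PS1 arrays, but APP-PS1 replicate 2 lay above 4 wild-type arrays, so the groups overlapped on both diets. The difference was -0.15 ± 0.07 (SE) on ibuprofen chow, a fold of 0.903 with adjusted p = 0.193. Averaged over diets it was -0.11 ± 0.05 (SE), with adjusted p = 0.613.

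Those p-values sit in a wide background, since 24.5% of all genes had an unadjusted p under 0.05 for genotype on ibuprofen chow, 18.2% as lower, and 7.7% for genotype averaged over diets, 5.36% as lower. The Rxra difference on ibuprofen chow was -0.20 without APP-PS1 ibuprofen chow replicate 2 (adjusted p = 0.0792), -0.10 without wild-type ibuprofen chow replicate 5 and -0.09 without the 3 arrays that stood apart. It shrank to -0.04 after quantile normalization of the arrays. Rxra varied with the mean of the pyramidal and granule cell markers, with a Pearson r of 0.710 and a Spearman rho of 0.432 for deviations from group means over 19 arrays, and an r of 0.529 without the 2 arrays farthest from the median of the marker mean. APP-PS1 ibuprofen chow replicate 2, the high Rxra array of its group, had a marker mean of 11.07, against 10.75 to 10.85 in the other arrays of that group and 11.11 to 11.28 in wild-type mice on ibuprofen chow. All 8 markers lay below 0 for genotype on ibuprofen chow, with a median of -0.22, against 37.8% above 0 and a median of -0.05 for all genes. With the mean of the general neuron markers the r of Rxra was 0.0134 for deviations from group means. The part of the pyramidal and granule cell markers in the Rxra values was not tested. The other retinoid X receptors pointed the same way without passing, Rxrb at -0.16 ± 0.08 (SE, adjusted p = 0.232) and Rxrg at -0.11 ± 0.10 (SE, adjusted p = 0.462) on ibuprofen chow.

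Cpt1a, the rate-limiting enzyme that loads long-chain fatty acids onto carnitine for entry into mitochondria, stood at 10.21, 9.88, 9.998, 9.66 and 10.15 in APP-PS1 mice on ibuprofen chow, against 9.92, 9.85, 9.85, 10.22 and 10.17 in APP-PS1 mice on control chow. In wild-type mice it stood at 9.87, 9.80, 9.84, 9.79 and 10.41 on ibuprofen chow, against 9.92, 9.99, 9.92 and 9.76 on control chow. Replicates 4 and 5 of APP-PS1 mice on control chow and replicate 5 of wild-type mice on ibuprofen chow lay above the rest of their groups. The APP-PS1 ibuprofen arrays were spread more evenly, and all groups overlapped. The genotype difference was 0.04 ± 0.12 (SE) on ibuprofen chow, adjusted p = 0.839, and 0.11 ± 0.12 (SE) on control chow, adjusted p = 0.962. Ibuprofen differences were -0.02 ± 0.12 (SE) in APP-PS1 mice and 0.04 ± 0.12 (SE) in wild-type mice.

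Array by array, Cpt1a followed markers of the choroid plexus, the epithelium that makes cerebrospinal fluid in the ventricles next to the hippocampus. Of 12 listed choroid plexus markers 11 were measured, 1 of them among the dimmest 25% of genes. Their mean fell into 2 sets of arrays, 7 between 9.39 and 10.67 and 12 between 7.88 and 8.52. Cpt1a ran from 9.92 to 10.41 in the 7 arrays with high choroid markers and from 9.66 to 9.99 in the other 12, which overlapped in only a narrow range. Within the 7 arrays the levels of Cpt1a and the marker mean had a Pearson r of 0.816 and a Spearman rho of 0.821. Within the 12 they had an r of 0.138 and a rho of 0.336. For the levels of Pdk4 and Lpl the r with the marker mean was 0.824 and 0.857 within the 7 arrays, and -0.105 and 0.249 within the 12. For deviations from group means, a different measure, it was 0.316 and 0.0226 over all 19. APP-PS1 ibuprofen chow replicate 3 was lowest of the 7 for the marker mean (9.39), Pdk4 (8.56) and Lpl (9.24), and the r without it was not computed. The high set held 3 of 5 APP-PS1 arrays on ibuprofen chow, 2 of 5 on control chow, 1 of 5 wild-type arrays on ibuprofen chow and 1 of 4 on control chow.

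With the choroid marker mean as a covariate, the Cpt1a genotype difference on control chow was 0.01, against 0.11 without it, and on ibuprofen chow -0.09, against 0.04 without it, all short of the threshold. Without wild-type ibuprofen chow replicate 5, which is high for both, the difference on ibuprofen chow was 0.16 (adjusted p = 0.409). Among single genes, those whose deviations from the group means followed Cpt1a most closely over the 19 arrays were Atp7a, a copper transporter, Gas6, a secreted ligand of the TAM receptors, and Antxr1, with r of 0.962, 0.962 and 0.961. The choroid markers Kl and Folr1 had r of 0.919 and 0.909 with it.

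**Figure D1:**
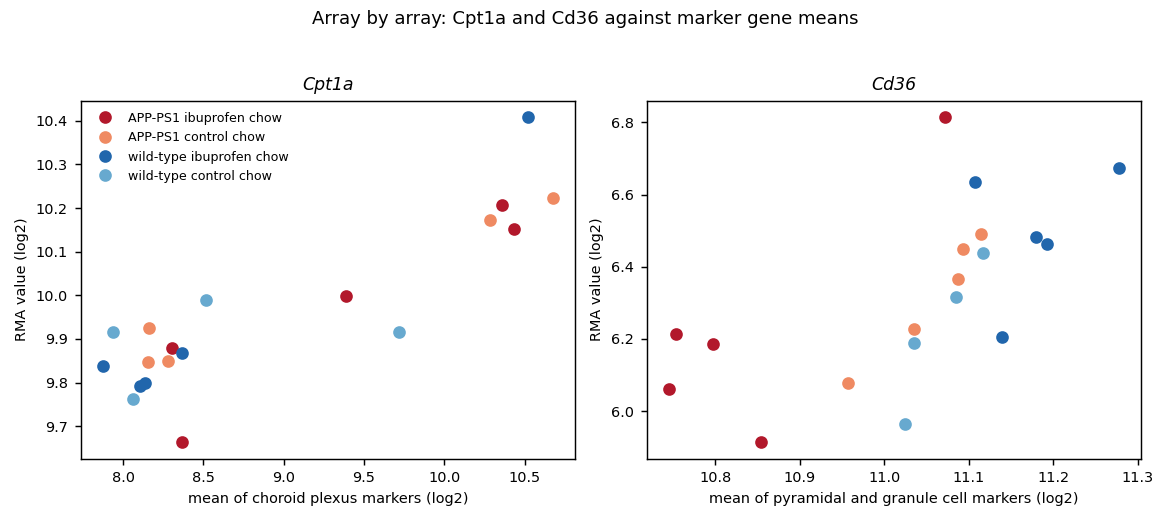
RMA values (log2) of Cpt1a against the mean of 11 choroid plexus markers (left) and of Cd36 against the mean of 8 hippocampal pyramidal and granule cell markers (right), 1 point per array, coloured by group. The 7 arrays with a choroid mean above 9 run from 9.92 to 10.41 for Cpt1a and the other 12 from 9.66 to 9.99, and 4 APP-PS1 arrays on ibuprofen chow have the lowest pyramidal and granule cell marker means, with Cd36 values that other groups also reach.

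Pdk4, the kinase that shuts off pyruvate dehydrogenase and so spares glucose when fat is burned, stood at 9.06, 9.25, 8.56, 8.52 and 9.22 in APP-PS1 mice on ibuprofen chow, against 9.08, 8.98, 9.10, 9.15 and 8.99 in APP-PS1 mice on control chow. In wild-type mice it stood at 9.26, 9.04, 9.11, 8.80 and 9.44 on ibuprofen chow, against 9.03, 9.14, 9.37 and 8.85 on control chow. The APP-PS1 ibuprofen group was the most scattered, with replicates 3 and 4 below every other array, and all groups overlapped. The genotype difference on ibuprofen chow was -0.21 ± 0.14 (SE), adjusted p = 0.322, and the ibuprofen difference in APP-PS1 mice -0.14 ± 0.14 (SE), adjusted p = 0.755. Without APP-PS1 ibuprofen chow replicate 4 the genotype difference was -0.11, without wild-type ibuprofen chow replicate 5 it was -0.13, and with array weights it was -0.01. The within-group SD of Pdk4, 0.246, was larger than that of 96.6% of genes.

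Angptl4, a secreted inhibitor of lipoprotein lipase and a standard PPAR target, was by contrast among the steadiest, with a within-group SD of 0.0862, larger than that of 16.6% of genes. Its values ran from 7.85 to 7.95 in APP-PS1 mice on ibuprofen chow and from 7.76 to 7.94 on control chow. In wild-type mice they ran from 7.75 to 8.07 on ibuprofen chow and from 7.78 to 7.90 on control chow. Every group overlapped every other, and the ibuprofen effect was 0.04 ± 0.07 (SE, adjusted p = 0.852) in APP-PS1 mice and 0.05 ± 0.07 (SE, adjusted p = 0.732) in wild-type mice. The interval of the average over genotypes ran from -0.06 to 0.14.

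Cd36, a membrane receptor for fatty acids and for oxidised lipoproteins on microglia and endothelium, was the only member among the dimmest 25% of genes, those with a mean under 7.149. It stood at 6.18, 6.82, 5.91, 6.21 and 6.06 in APP-PS1 mice on ibuprofen chow, against 6.63, 6.48, 6.46, 6.21 and 6.67 in wild-type mice on ibuprofen chow. On control chow the values were 6.45, 6.08, 6.49, 6.23 and 6.36 in APP-PS1 mice, against 6.19, 6.44, 5.96 and 6.32 in wild-type mice. On ibuprofen chow every wild-type array exceeded 3 of the 5 APP-PS1 arrays, while replicate 2 was the highest array of the series, and the groups overlapped on both diets. The genotype difference there was -0.25 ± 0.13 (SE), a fold of 0.839 with adjusted p = 0.230. Ibuprofen gave 0.27 ± 0.14 (SE) in wild-type mice, adjusted p = 0.432, and -0.08 ± 0.13 (SE) in APP-PS1 mice, adjusted p = 0.844, and the interaction was -0.35 ± 0.19 (SE), adjusted p = 0.288.

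Leaving out APP-PS1 ibuprofen chow replicate 2 moved the Cd36 genotype difference on ibuprofen chow to -0.40 with adjusted p = 0.0561, the lowest adjusted p of any member under any alternative. Without the 3 arrays that stood apart it was -0.15, with adjusted p = 0.774. The gene followed markers of pyramidal and granule cells, of which all 8 were measured and none lay in the dimmest 25%. Over the 19 arrays the deviations of Cd36 and of the marker mean from their group means had a Pearson r of 0.771 and a Spearman rho of 0.688, and r was 0.529 without the 2 arrays farthest from the median of the marker mean. With the mean of the microglia and macrophage markers the r of Cd36 was 0.261, and with that of the endothelial markers 0.315. With the mean of the general neuron markers it was -0.107, so the link did not extend to that neuron list. In levels, the pyramidal and granule cell marker mean was 10.80, 11.07, 10.85, 10.75 and 10.75 in APP-PS1 mice on ibuprofen chow, against 11.11, 11.18, 11.19, 11.14 and 11.28 in wild-type mice on ibuprofen chow. Of these 8 marker genes 2 passed as lower for genotype on ibuprofen chow, where 0.271% of all genes passed. The part of the marker genes in the Cd36 values was not tested. The single markers closest to Cd36 were Prox1, the granule cell transcription factor, with r of 0.789, and Fibcd1, a marker of CA1 pyramidal cells, with r of 0.735.

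Lpl, the lipase that releases fatty acids from circulating lipoproteins and that hippocampal neurons also make, gave the largest interaction of the set. It stood at 9.99, 10.10, 9.24, 9.99 and 10.03 in APP-PS1 mice on ibuprofen chow, against 10.20, 10.03, 10.18, 10.02 and 10.02 in APP-PS1 mice on control chow. In wild-type mice it stood at 10.08, 10.05, 10.07, 10.01 and 10.29 on ibuprofen chow, against 9.88, 9.96, 9.77 and 9.96 on control chow. The wild-type control group lay below every other array except APP-PS1 ibuprofen chow replicate 3, which was lowest of all. On control chow all 5 APP-PS1 arrays exceeded all 4 wild-type arrays, and in wild-type mice all 5 ibuprofen arrays exceeded all 4 control arrays. Groups were fully separate for 3.84% of all genes in the first of these comparisons, 2.94% as higher, and for 2.24% in the second, 1.94% as higher.

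Neither Lpl difference passed, with 0.20 ± 0.12 (SE), a fold of 1.15 with adjusted p = 0.916, for genotype on control chow and 0.21 ± 0.12 (SE), a fold of 1.15 with adjusted p = 0.439, for ibuprofen in wild-type mice. In the other direction, genotype on ibuprofen chow gave -0.23 ± 0.11 (SE), adjusted p = 0.212, and ibuprofen in APP-PS1 mice -0.22 ± 0.11 (SE), adjusted p = 0.716. Both of those values rested on APP-PS1 ibuprofen chow replicate 3, without which they were -0.07 and -0.06. The interaction was -0.43 ± 0.17 (SE) with adjusted p = 0.209, where 20.5% of all genes had an unadjusted p under 0.05 and 16% as lower. It was -0.27 without replicate 3 of the APP-PS1 ibuprofen group, -0.38 without wild-type ibuprofen chow replicate 5, -0.34 without the 3 arrays that stood apart and -0.26 after quantile normalization.

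On control chow oligodendrocyte markers, like Lpl, were higher in APP-PS1 mice, with a median of the array means of 11.33 against 11.13 in wild-type mice. On ibuprofen chow that median was 11.27 in APP-PS1 and in wild-type mice. For deviations from group means over 19 arrays, Lpl and the marker mean had a Pearson r of 0.388 and a Spearman rho of 0.428. With the marker mean as a covariate the Lpl genotype difference on control chow was 0.08 and the interaction -0.28. With the endothelial mean as a covariate that genotype difference was 0.17, and with the choroid mean 0.19. Of 12 listed oligodendrocyte markers 11 were measured, and array means ran from 11.23 to 11.34 in APP-PS1 mice and from 11.10 to 11.24 in wild-type mice on control chow. Other lists leaned the same way for genotype on control chow, where 57.9% of all genes lay above 0. Above 0 were 9 of 11 oligodendrocyte, 11 of 11 endothelial, 9 of 10 astrocyte, 9 of 11 microglia and macrophage and 11 of 11 choroid markers. Of neuron markers and of pyramidal and granule cell markers 3 of 8 did so in each list. With the microglia and macrophage mean Lpl had an r of 0.273 and a rho of 0.384. The part of these lists in the Lpl values was otherwise not tested. Sema5a, a guidance protein gene, Cpne4 and Npy2r, a neuropeptide Y receptor gene, followed Lpl most closely over the 19 arrays, with r of 0.947, 0.936 and 0.923 for deviations from group means. Without the 2 arrays farthest from the Lpl group means, those values were 0.821, 0.823 and 0.762. Lpl and Cd36 themselves had an r of 0.641 and a rho of 0.626, and an r of 0.618 over the 16 arrays left without the 3 that stood apart.

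**Figure D2:**
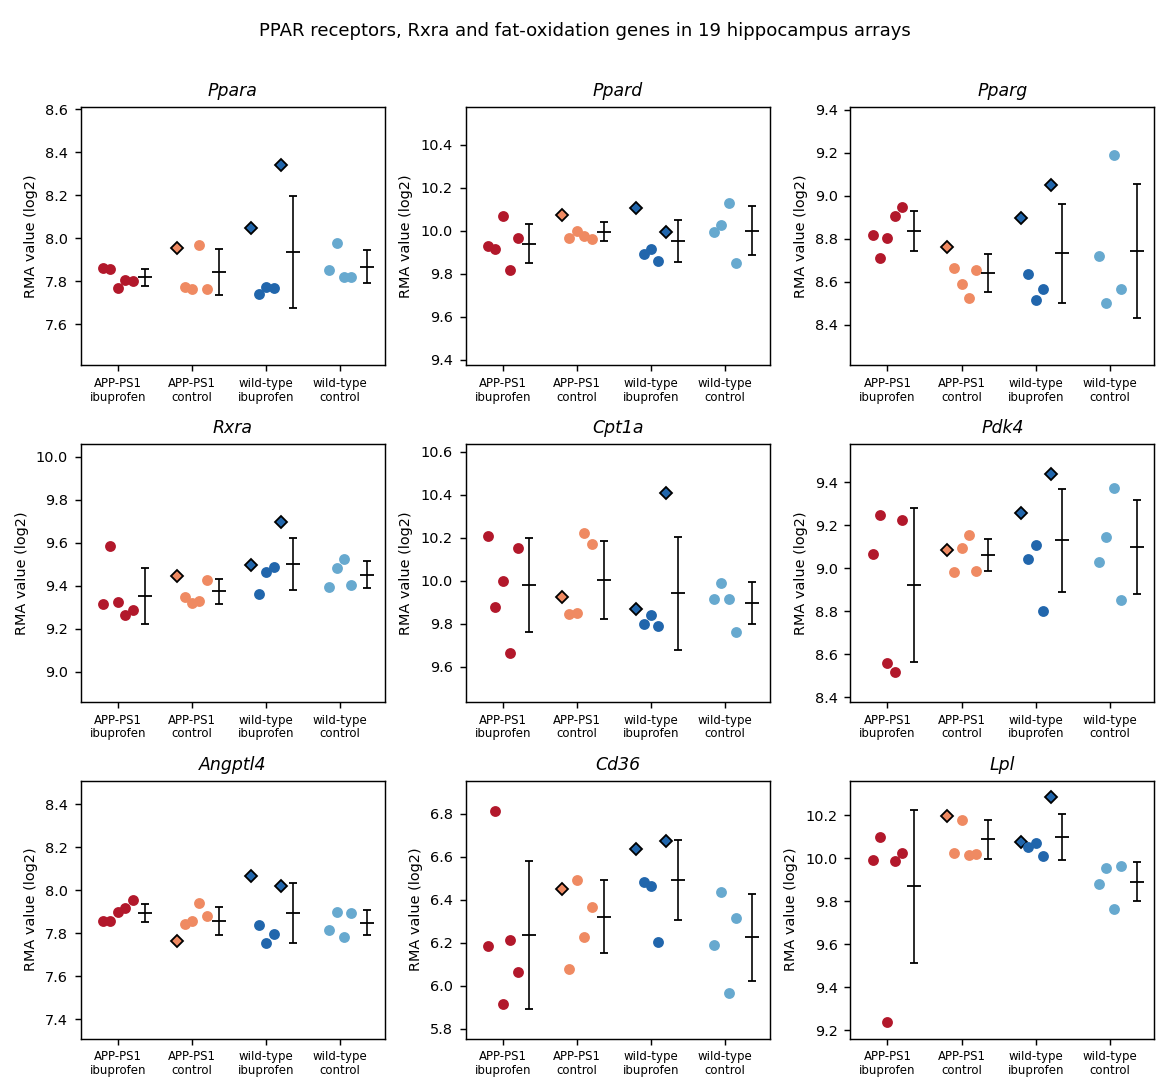
RMA values (log2) of the 9 genes in every array, 1 panel per gene with the same height of scale, by group; diamonds with a black edge are the 3 arrays that stood apart, and black marks give the group mean ± SD (n = 5, 5, 5 and 4 from left to right). The groups compared overlap in every panel except that of Lpl, where wild-type mice on control chow lie below APP-PS1 mice on control chow and wild-type mice on ibuprofen chow.

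Counted by comparison, 0 of 9 members passed for genotype on control chow, where 0.01% of all genes did, and 0 of 9 for genotype on ibuprofen chow, where 0.271% did. For ibuprofen in APP-PS1 mice, ibuprofen in wild-type mice, the interaction and the average ibuprofen effect the share over all genes was 0%, and for the average genotype effect it was 0.0251%. At an unadjusted p under 0.05, limma gave 0 members against 5.87% of genes for genotype on control chow, 1 (Rxra, lower) against 24.5% on ibuprofen chow, 0 against 6.48% for ibuprofen in APP-PS1 mice and 0 against 11% in wild-type mice. It gave 1 (Lpl, lower) against 20.5% for the interaction, 1 (Rxra, lower) against 7.7% for the average genotype effect and 0 against 1.74% for the average ibuprofen effect. No comparison had more than 1 member at that level.

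The median difference of the 9 genes followed the median of all genes in sign in 6 of the 7 comparisons. It was -0.12 for genotype on ibuprofen chow, with 3 of 9 above 0, against -0.05 and 37.8% for all genes. For ibuprofen in wild-type mice it was 0.05, with 7 of 9 above 0, against 0.05 and 66.8%, and in APP-PS1 mice -0.03, with 2 of 9 above 0, against -0.02 and 41.8%. The intervals bound how large an ibuprofen effect could be: over the 9 genes, the 95% limits ran from -0.45 to 0.43 in APP-PS1 mice and from -0.27 to 0.56 in wild-type mice. For the genotype they ran from -0.53 to 0.34 on ibuprofen chow and from -0.35 to 0.45 on control chow.

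**Figure D3:**
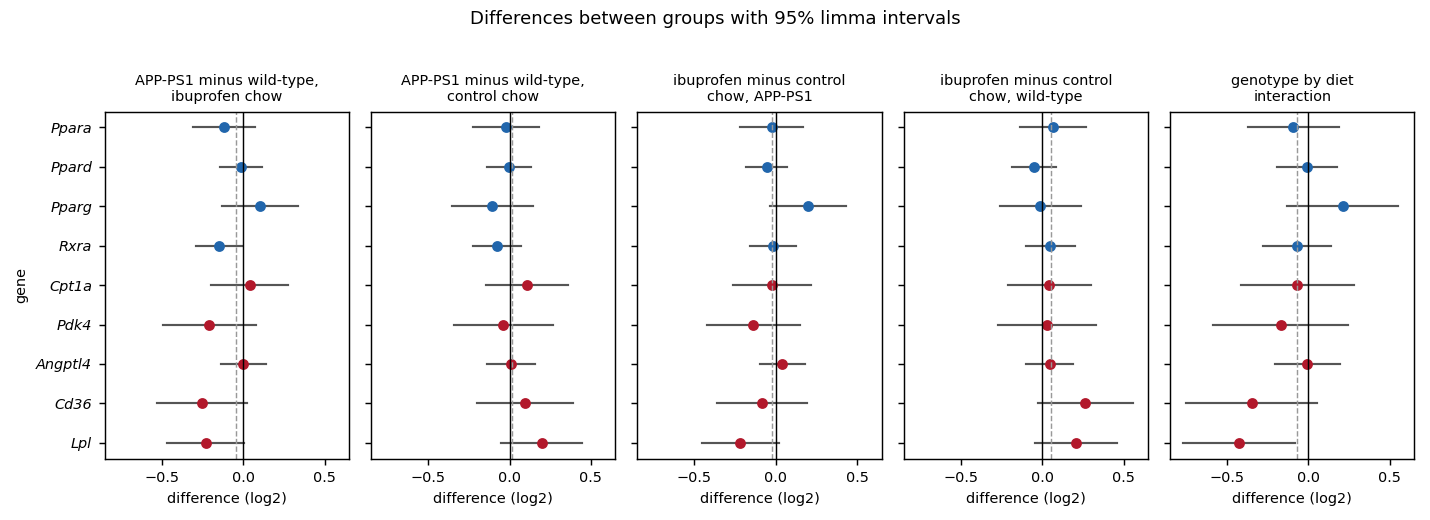
Differences (log2) of the 9 genes in 4 comparisons of groups and in the interaction, with 95% limma intervals; receptors and Rxra are blue, targets red, the solid line marks 0 and the dashed line the median of all genes. The intervals cross 0 except for Rxra in the first panel and Lpl in the last, with adjusted p of 0.193 and 0.209.

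Most of the set varied widely within groups. Pparg, Cpt1a, Pdk4, Cd36 and Lpl had within-group SDs of 0.195, 0.205, 0.246, 0.238 and 0.202, each larger than those of 90.7% to 96.6% of all genes. The array with the highest value was wild-type ibuprofen chow replicate 5 for Ppara, Rxra, Cpt1a, Pdk4 and Lpl. By group means, wild-type mice on ibuprofen chow ranked first for Ppara, Rxra, Pdk4, Cd36 and Lpl, and APP-PS1 mice on ibuprofen chow ranked last for Ppara, Ppard, Rxra, Pdk4 and Lpl. Of the neighbouring means in these orders that were tested, none passed the threshold. For Lpl, the neighbours APP-PS1 and wild-type mice on control chow had groups that did not overlap.

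Genes with the most similar array pattern, by Pearson r of deviations from group means over 19 arrays, were also found for the others. Ppara went with Rdh10, Slc20a2 and Prkcsh at r of 0.943, 0.943 and 0.942, which were 0.696, 0.642 and 0.652 over the 16 arrays without the 3 that stood apart. Ppara also had an r of 0.784 with the mean of 11 endothelial markers, 0.473 over those 16 arrays. Ppard went with Rgs2, Blnk and Rel at 0.928, 0.913 and 0.907, and these held at 0.941, 0.897 and 0.889. Rxra went with Urgcp at 0.952, Phf2 at 0.903 and Ep400 at 0.902, and Pparg with Elac2 at 0.884, Larp4 at 0.853 and Samd10 at 0.852. Angptl4 went with Cxcl16 at 0.903, Map3k8 at 0.893 and Nup62cl at 0.867, Pdk4 with Tmem108 at 0.881, Pcdhb20 at 0.873 and Vwa8 at 0.869, and Cd36 with Mc4r at 0.861, Mttp at 0.858 and Mettl8 at 0.854. These genes are the highest among all genes measured and carry no test.

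Around the members, the wider fat oxidation machinery was read from lists. No gene passed in any pathway list in any of the 7 comparisons. The mitochondrial beta-oxidation list, the enzymes and carriers that shorten fatty acids inside mitochondria, had 18 of 19 genes measured. For genotype on control chow 17 of 18 lay above 0 with a median of 0.15, against 57.9% and 0.02 for all genes. On ibuprofen chow 15 of 18 lay below 0 with a median of -0.04, against 37.8% above 0 and a median of -0.05 for all genes. For ibuprofen in APP-PS1 mice 0 of 18 lay above 0, median -0.08, against 41.8% and -0.02 for all genes. In wild-type mice 17 of 18 lay above 0, median 0.14, against 66.8% and 0.05 for all genes. The interaction had 0 of 18 above 0 with a median of -0.20, against 35.6% and -0.07 for all genes. These comparisons share arrays, so they are not separate observations.

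Within that list, Slc25a20, the mitochondrial carnitine and acylcarnitine carrier, had an interaction of -0.40 ± 0.15 (SE), adjusted p = 0.208. Hadh, a hydroxyacyl-CoA dehydrogenase, gave 0.23 ± 0.08 (SE) for genotype on control chow, adjusted p = 0.797. Cpt1c, the brain relative of Cpt1a, had an interaction of -0.22 ± 0.08 (SE), adjusted p = 0.208.

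Peroxisomal beta-oxidation genes, which handle very long and branched chains, had 14 of 16 measured and leaned the same way. The median was -0.14 for genotype on ibuprofen chow with 13 of 14 below 0, 0.13 on control chow with 10 of 14 above 0, and -0.24 for the interaction with 13 of 14 below 0. For all genes these medians were -0.05, 0.02 and -0.07, with 37.8%, 57.9% and 35.6% above 0. Crot, the peroxisomal carnitine octanoyltransferase, showed it most: APP-PS1 mice averaged 10.11 ± 0.10 (SD, n = 5) on ibuprofen chow and 10.29 ± 0.05 (SD, n = 5) on control chow, and wild-type mice 10.39 ± 0.14 (SD, n = 5) on ibuprofen chow and 10.10 ± 0.14 (SD, n = 4) on control chow. For Crot the groups did not overlap in any of the 4 comparisons of groups, as was so for 2.29% of all genes for genotype on ibuprofen chow, 3.84% on control chow, 2.77% for ibuprofen in APP-PS1 mice and 2.24% in wild-type mice. The interaction of Crot was -0.47 ± 0.10 (SE), adjusted p = 0.208, genotype on ibuprofen chow gave -0.28 ± 0.07 (SE), adjusted p = 0.0778, and ibuprofen in wild-type mice 0.29 ± 0.07 (SE), adjusted p = 0.432. Abcd3, a peroxisomal fatty acid transporter, and Scp2, a sterol carrier and thiolase, had interactions of -0.26 ± 0.10 (SE) and -0.34 ± 0.11 (SE), both with adjusted p = 0.208.

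These list medians depended on the arrays used and on the processing, and the medians of all genes in the other settings are not set beside them. The mitochondrial interaction median of -0.20 was -0.07 without the 3 arrays that stood apart, -0.05 after quantile normalization and -0.002 with array weights, and the peroxisomal one of -0.24 was -0.06, -0.13 and -0.04 in the same settings. Some marker lists also leaned below 0 for the interaction, where all genes had 35.6% above 0 and a median of -0.07. Of oligodendrocyte markers 11 of 11 lay below 0, median -0.18, and of pyramidal and granule cell markers 8 of 8, median -0.18. Endothelial markers had 11 of 11 below 0 with a median of -0.14 and astrocyte markers 9 of 10 with -0.11. Medians of the other lists lay above that of all genes: -0.02 for microglia and macrophages, -0.01 for blood cells and 0.001 for neurons. They were 0.02 for mural and meningeal cells, 0.08 for choroid plexus and 0.22 for adipocytes. With the oligodendrocyte mean as a covariate the mitochondrial median was -0.13 and the peroxisomal one -0.17, and with the endothelial mean they were -0.11 and -0.17. The part of the pyramidal, granule cell and astrocyte markers was not tested.

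**Figure D4:**
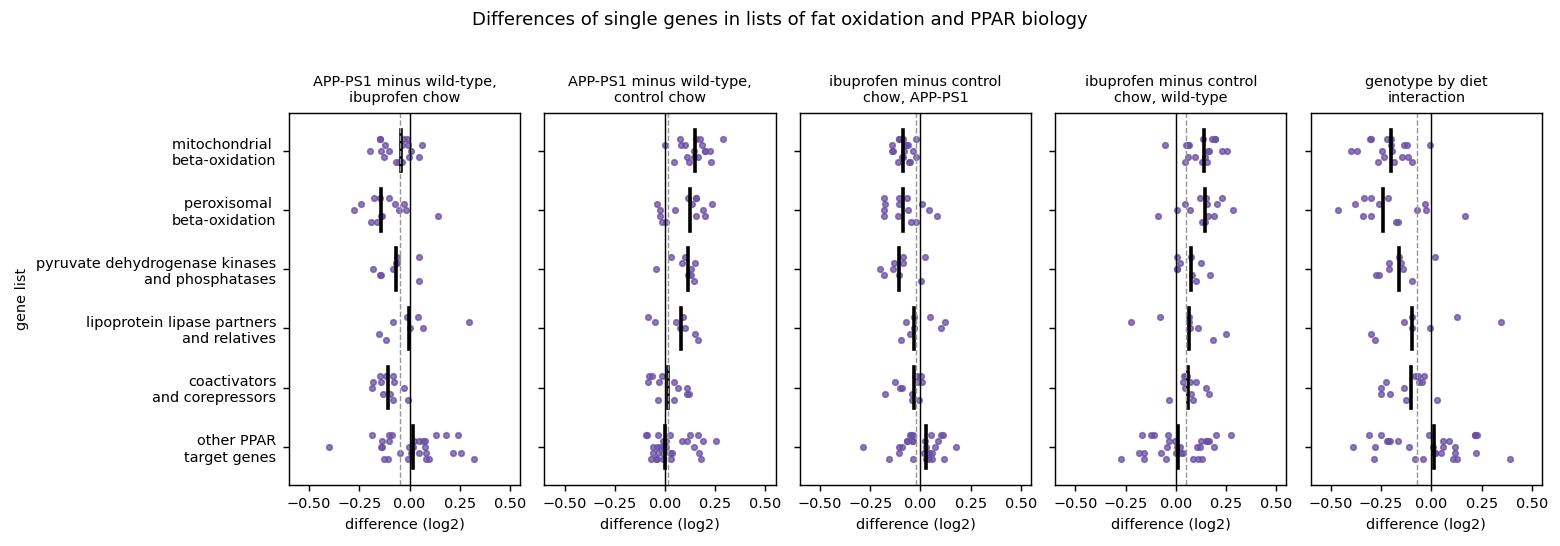
Differences (log2) of single genes (points) in 6 lists around the PPAR genes, in 4 comparisons of groups and in the interaction; black bars are list medians, the solid line marks 0 and the dashed line the median of all genes. Points of both beta-oxidation lists lie mostly right of 0 for genotype on control chow and for ibuprofen in wild-type mice and left of it in the other panels, and no gene passed the threshold.

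Other PPAR target genes did not share that lean. Of 30 measured, 8 of them among the dimmest 25%, 17 lay above 0 for ibuprofen in APP-PS1 mice with a median of 0.03, and 16 in wild-type mice with a median of 0.01. For all genes these were 41.8% and -0.02 in APP-PS1 mice, and 66.8% and 0.05 in wild-type mice. Slc27a2, a very long-chain acyl-CoA synthetase and fatty acid transporter, came closest to the threshold, with means of 8.45 ± 0.21 (SD, n = 5) in APP-PS1 mice and 8.85 ± 0.21 (SD, n = 5) in wild-type mice on ibuprofen chow. Its difference was -0.40 ± 0.09 (SE), a fold of 0.758 with adjusted p = 0.057. Plin2, the lipid droplet coat protein, and Acot2, a mitochondrial acyl-CoA thioesterase, were higher in every APP-PS1 array than in every wild-type array on control chow, by 0.25 ± 0.10 (SE, adjusted p = 0.805) and 0.19 ± 0.06 (SE, adjusted p = 0.767), where 2.94% of all genes were higher in this way, and neither passed.

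The coactivators and corepressors that PPARs share with other nuclear receptors had 12 of 14 genes measured. For genotype on ibuprofen chow all 12 lay below 0 with a median of -0.11, against 37.8% above 0 and a median of -0.05 for all genes. Nrip1, a corepressor of fat oxidation genes, had an interaction of -0.25 ± 0.08 (SE, adjusted p = 0.208), and Ncoa2 and Crebbp, both coactivators, gave -0.14 ± 0.05 (SE, adjusted p = 0.150) and -0.12 ± 0.04 (SE, adjusted p = 0.152) on ibuprofen chow. Beside Lpl, 8 of 11 partners and relatives were measured. Gpihbp1, which anchors the lipase to capillaries, gave 0.30 ± 0.11 (SE, adjusted p = 0.154) for genotype on ibuprofen chow, and Lmf1, a factor that lipases need to mature, and Sort1, a sorting receptor that binds lipoprotein lipase, had interactions of -0.30 ± 0.14 (SE, adjusted p = 0.234) and -0.14 ± 0.05 (SE, adjusted p = 0.208).

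Around Pdk4, 9 genes of the pyruvate dehydrogenase kinases, phosphatases and subunits were measured. For ibuprofen in APP-PS1 mice 7 lay below 0, median -0.11, against 41.8% above 0 and a median of -0.02 for all genes. In wild-type mice 9 of 9 lay above 0, median 0.07, against 66.8% and a median of 0.05 for all genes. Pdhb, a subunit of the dehydrogenase, gave -0.20 ± 0.08 (SE, adjusted p = 0.716) and Pdk3, a sister kinase, -0.13 ± 0.05 (SE, adjusted p = 0.716) for ibuprofen in APP-PS1 mice, and Pdp1, a phosphatase that reverses them, -0.18 ± 0.06 (SE, adjusted p = 0.131) for genotype on ibuprofen chow. Of ketone body genes only Acat1 and Bdh1 were measured, with interactions of -0.20 ± 0.09 (SE, adjusted p = 0.232) and -0.18 ± 0.09 (SE, adjusted p = 0.243). Glucocorticoid-responsive genes, listed because glucocorticoids also raise Pdk4 and Angptl4, had 9 of 13 below 0 for genotype on ibuprofen chow. Their median was -0.19, against 37.8% above 0 and a median of -0.05 for all genes. Zbtb16 gave -0.34 ± 0.08 (SE, adjusted p = 0.0635) there and Klf9 -0.19 ± 0.06 (SE, adjusted p = 0.129). Errfi1, of the same list, gave 0.17 ± 0.06 (SE, adjusted p = 0.797) for genotype on control chow.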

How the data were processed

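Affymetrix arrays of hippocampal RNA were summarised by the authors into deposited log2 values for each probe set. The submitters' processing notes name Partek 6.5 and RMA. The RMA settings and the build behind the annotation are not given in the sources used here, and the scanner files were not used. The values were not normalized again, and the number of arrays limits the precision. Of 35556 probe sets, 21789 carried 1 gene symbol in the platform annotation, 1621 several and 12146 none here. Each gene took the probe set with the highest mean, which gave 19938 genes, 999 of them with more than 1 probe set.

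One limma fit (R 4.3.3 with limma 3.58.1) estimated the 4 group means from the 19 arrays together, leaving 15 residual degrees of freedom, an intensity trend and 6.646 prior degrees of freedom. It was tried on simulated data with independent, normally distributed genes and no outlying arrays. That trial does not cover arrays that stand apart or genes that vary together. Tests were two-sided, adjusted by Benjamini and Hochberg over 19938 genes, threshold 0.05. Errors are limma SE for differences and SD for means. Pathway and marker lists were fixed by name, and up to 3 list genes with the smallest p, the 3 genes most like each member and the 2 markers most like any member were named. Members and lists were chosen with earlier results of these data known. The split of arrays at a choroid marker mean of 9 was made after seeing the values. Some genes of the lists were not analysed here and are not reported. Alternatives were other normalizations, a filter on dim genes, other probe set, empirical Bayes and weighting choices, fewer groups, the replicate number as a block, cell marker covariates, and leaving out arrays. Promoter sequences are RefSeq's (GRCm38.p6). Figures used Python 3.11.15 and matplotlib 3.10.9.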

Additional observations from a re-analysis of the deposited data

Results flagged for a closer look

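In 36 groups of values (9 genes in 4 groups), 4 had an array whose gap to its nearest neighbour took up an unusually large share of the group's range, where chance gives about 1 in 20. For Lpl this was APP-PS1 ibuprofen chow replicate 3, at 9.24 with the next array at 9.99, a gap of 0.871 of the range. Lpl also had wild-type ibuprofen chow replicate 5, at 10.29 with the next at 10.08, a gap of 0.751. For Cpt1a it was wild-type ibuprofen chow replicate 5, at 10.41 with the next at 9.87, a gap of 0.876. For Rxra it was APP-PS1 ibuprofen chow replicate 2, at 9.58 with the next at 9.33, a gap of 0.808. Wild-type ibuprofen chow replicate 5 is the array with the lowest median correlation with the others, 0.974.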

How the results depend on the processing

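The count of members called was 0 in all 7 comparisons under each of the 14 alternatives that could be run for them and under each of the 19 leave-outs of 1 array. Of 2045 member values from these settings 0 passed, with 0.0561 as the lowest adjusted p. The sign turned in 201 values, from 38 of 63 member differences, none of them called.

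Counts over all genes moved more. For genotype on ibuprofen chow 54 genes passed, against 5 with only the groups compared, 33 without the 3 arrays that stand apart, 91 with robust empirical Bayes, 128 without the dimmest 25%, 227 with an endothelial covariate and 1004 with array weights, and 10 (without APP-PS1 ibuprofen chow replicate 4) to 1490 (without wild-type ibuprofen chow replicate 4) when 1 array was left out. For genotype on control chow 2 passed, and 2 to 4 with 1 array left out and 8 with array weights. For the average genotype effect 5 passed, 3 with an oligodendrocyte covariate, 8 with median centring or without the 3 arrays, 11 with quantile normalization, 12 with an endothelial covariate, 342 with array weights and 3 to 52 with 1 array left out. With array weights the interaction had 174 genes and ibuprofen 108 (APP-PS1) and 2 (wild-type), where 0 passed under every other alternative, and where leaving out 1 array gave at most 13, 3 and 0. The causes were not tested.

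Replicate numbers are shared between groups, and the labels do not say what they stand for, so the main fit did not use them. Of 27 same-numbered pairs of arrays 17 had deviations that correlated over 0.1, with a range of -0.27 to 0.60. Pairs of different numbers were not compared, so these values cannot tell whether the numbers mark a shared litter or batch. With the replicate number as a block, 197 genes passed for genotype on ibuprofen chow, 4 on control chow and 6 for the average genotype effect, 0 in the other comparisons, and 0 of 9 members in any. The Lpl interaction with the block was -0.40 (adjusted p = 0.180).

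Among the list genes named, 23 values passed under some setting. Crot had adjusted p = 0.0376 for the interaction with array weights, and for genotype on ibuprofen chow 0.0437 with the replicate block. Slc27a2 had 0.0475 for that genotype difference without the dimmest 25% of genes and 0.00473 without APP-PS1 ibuprofen chow replicate 2, and Zbtb16 had 0.00251 without the same array.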
